A study of Mus musculus with 23 samples.

Results

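Transcript levels of 10 genes that mark crypt base stem cells or belong to the Wnt pathway in mouse small intestine were compared between mice fed galactose and mice fed glucose. The genes, chosen by name, were Lgr5, Olfm4, Ascl2, Axin2, Smoc2, Slc12a2, Sox9, Rnf43, Znrf3 and Ephb3. They are 10 of 55416 gene rows, and all 10 were among the 13405 genes that passed the count filter. A pair of transcripts of neighbouring cells was read beside them, Lyz1, the lysozyme of Paneth cells, and Myh11, the myosin heavy chain of smooth muscle. The RNA came from scraped proximal small intestine, with 1 RNA-seq library for each C57BL/6JRccHsd mouse, all labelled female. GAL42 mice (n = 12) ate a diet with 16% of energy as galactose and 16% as glucose, and GLU42 mice (n = 11) ate one with 32% of energy as glucose that was the same in other respects. Both diets began at 21 days of age, after weaning, and tissue was taken 3 weeks later, at 42 days. The mice carried no transgene, and the labels pair no mice across the diets.

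The intestinal epithelium is renewed from stem cells at the base of the crypts, where they lie between Paneth cells. Wnt ligands bind Frizzled receptors with Lrp5 or Lrp6, which stabilises beta-catenin, and beta-catenin with Tcf factors switches on target genes, among them Lgr5, Ascl2 and Axin2. Rnf43 and Znrf3 are ubiquitin ligases that remove Frizzled from the cell surface, R-spondins bound to Lgr receptors hold them back, and Axin2 rebuilds the complex that destroys beta-catenin. The crypt base is the deepest part of the epithelium, and muscle lies beneath it, so both lie at the deep edge of a scraping.

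Libraries held 15382583 to 17174721 counts in genes. Markers of enterocytes summed to a mean of 77295 CPM (counts scaled to library size) in GAL42 libraries and 76456.5 CPM in GLU42 libraries, while 5 markers of stomach and Brunner glands summed to at most 3.95 CPM in GAL42 libraries and 1.38 CPM in GLU42 libraries. GAL42 replicate 12, labelled female, held 4 Xist counts and 225 counts of 4 Y-linked genes, where the other libraries had a median of 1518.5 and at most 1. GAL42 replicate 7 was the single library whose removal gave any genes called by edgeR between the diets, 219 of 13338. GAL42 replicate 2 held 628 CPM of pancreatic acinar transcripts, against a median of 34.7 CPM over GAL42 and 39.4 CPM over GLU42 libraries. For some of the genes, values without a library that moved the difference are given below.

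Promoter sequence was at hand for 5 of the 10 genes. Axin2, Olfm4 and Ascl2 are shown, because Olfm4 and Ascl2 followed the Paneth transcript from library to library, while for Axin2 no such relation passed the test. Each is the 250 bases before the start of transcription, 5′ to 3′, from RefSeq on GRCm38.p6, a build other than the GRCm39 of the counts. Axin2 lies at chr11:108920099-108920348 on the plus strand, Olfm4 at chr14:80000052-80000301 on the plus strand and Ascl2 at chr7:142969265-142969514 on the minus strand. Capitals mark GGGCGG or its reverse complement, a GC box.
Axin2: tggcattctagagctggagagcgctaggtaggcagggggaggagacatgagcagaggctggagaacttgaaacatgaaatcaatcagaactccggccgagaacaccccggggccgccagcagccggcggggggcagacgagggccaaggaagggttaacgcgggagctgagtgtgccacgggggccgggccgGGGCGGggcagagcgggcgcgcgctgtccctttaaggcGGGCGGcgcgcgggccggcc
Olfm4: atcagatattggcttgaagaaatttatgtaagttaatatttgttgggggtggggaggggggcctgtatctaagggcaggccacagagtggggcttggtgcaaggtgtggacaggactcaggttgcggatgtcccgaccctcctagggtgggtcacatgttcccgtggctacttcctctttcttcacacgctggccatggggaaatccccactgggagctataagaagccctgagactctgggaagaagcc
Ascl2: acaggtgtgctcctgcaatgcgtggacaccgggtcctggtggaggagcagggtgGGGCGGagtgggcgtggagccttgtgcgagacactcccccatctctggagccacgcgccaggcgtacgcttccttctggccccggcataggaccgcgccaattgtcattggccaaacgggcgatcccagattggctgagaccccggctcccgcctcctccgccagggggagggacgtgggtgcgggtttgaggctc
The GC content of these windows was 69.2% for Axin2, 54% for Olfm4 and 67.6% for Ascl2, against a median of 52.4% over 32851 promoter windows. A GC box stood in 3 of 6 windows of the stem cell and Wnt genes, those of Ascl2, Axin2 and Ephb3, and in 32.7% of all windows. The letters CTTTGA, a core of the Tcf motif, searched on both strands, were in 0 of these 6 windows and in 13.8% of all windows. The like letters CTTTGT were in 0 of 6 and in 16.5%.

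Per length of transcript the genes stood in a wide order. Over 23 libraries Olfm4, a secreted glycoprotein of crypt base cells, had 27.2 ± 12.7 CPM per kilobase (SD). Axin2 had 8.15 ± 1.80, Rnf43 7.17 ± 0.920, Slc12a2 4.34 ± 1.53, Smoc2 2.97 ± 1.03, Sox9 1.81 ± 0.674 and Lgr5 1.07 ± 0.361 CPM per kilobase. Ascl2 with 0.795 ± 0.517, Ephb3 with 0.496 ± 0.213 and Znrf3 with 0.441 ± 0.132 CPM per kilobase came last. Olfm4 lay above Axin2 in 22 of 23 libraries and Smoc2 above Sox9 in 23 of 23. The neighbours at the low end did not part beyond their spread, with Lgr5 above Ascl2 in 16 of 23 libraries, Ascl2 above Ephb3 in 15 and Ephb3 above Znrf3 in 11. Reads behind these levels ran from 286 to 2641 per library for Olfm4, from 28 to 134 for Lgr5 and from 1 to 52 for Ascl2.

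Between the diets 10 of 10 genes had a negative log2 difference (GAL42 minus GLU42), and 0 of 10 passed edgeR's quasi-likelihood test at an adjusted p of 0.05. Over all 13405 genes 0% passed, and 50.5% had a negative difference. The 10 signs are not separate results, because 7 of the genes varied together over the 23 libraries (below). Smoc2 stood at -0.02 and Rnf43 at -0.04. At an unadjusted p under 0.05 there were 2 of 10, Axin2 and Ascl2, both lower on GAL42, where 5.72% of all genes were lower and 8.63% higher at that p. Axin2 kept a p under 0.05 with any of 23 libraries left out (highest 0.0188 by edgeR). Ascl2 had a p of 0.05 or more in 14 of 23 such fits (highest 0.105, without GLU42 replicate 5) and 0.0733 by limma-voom. With the length slope held, a property of the libraries described below, p by edgeR was 0.216 for Axin2 (log2 difference -0.13) and 0.00304 for Ascl2 (-1.32). With diet alone, the median difference of the 10 genes was -0.28, against -0.00174 for all tested genes. DESeq2, which gave no adjusted p for Ascl2, called 0 of 10 genes (0.642% of all genes). The calls were 0 by limma-voom (0% of all) and 0 by limma-voom with quality weights (1.25% of all). Without GAL42 replicate 7 edgeR also called 0 of the 10, where it called 1.64% of all genes. With 0 of 10 genes called, a lower level on GAL42 was not established. In scrapings, fewer stem cells, less RNA per cell and a different scraping depth cannot be told apart.

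**Figure D1:**
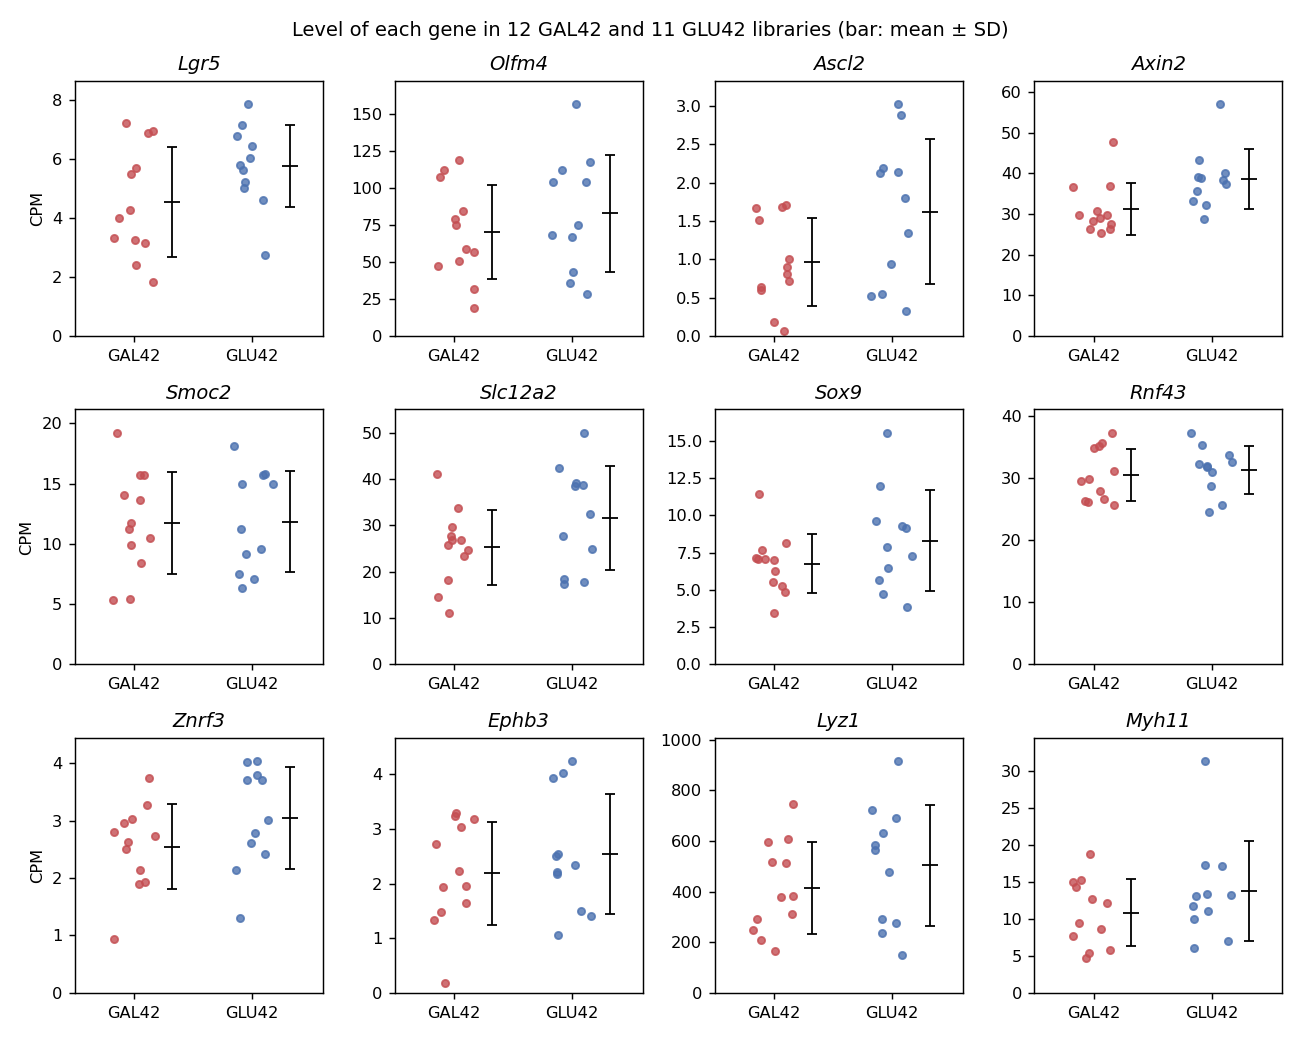
Level of each gene in CPM (y axis, from 0) in every library, for GAL42 (red, left) and GLU42 (blue, right), with the mean and SD beside the points. The diets overlap for all 10 genes and for Lyz1 and Myh11, and ranges that do not overlap were found for 0 of 13405 tested genes. For Ascl2 12 of 12 GAL42 libraries lie below the GLU42 median, and the share of all genes that do so was not counted.

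Lgr5, the R-spondin receptor that defines crypt base stem cells, ranged from 1.84 CPM over a median of 4.14 to 7.22 CPM in GAL42 libraries, and from 2.74 over 5.80 to 7.87 CPM in GLU42 libraries. The ranges overlapped over most of their length, and 9 of 12 GAL42 libraries lay below the GLU42 median. The means were 4.55 ± 1.86 CPM on GAL42 and 5.76 ± 1.39 CPM on GLU42 (SD), a ratio of 0.791 with a 95% interval of 0.598 to 1.05 (log2 difference -0.34 ± 0.20 SE, adjusted p = 0.433 by edgeR).

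Ascl2, a transcription factor that maintains the stem cell state, ranged from 0.0658 CPM over a median of 0.858 to 1.71 CPM in GAL42 libraries, and from 0.326 over 1.80 to 3.02 CPM in GLU42 libraries. All 12 GAL42 libraries lay below the GLU42 median, while 5 GLU42 libraries lay at or below the highest GAL42 library. The ratio of 0.591 was the lowest of the 10 genes and its 95% interval, 0.351 to 0.996, the widest on the log scale (log2 difference -0.76 ± 0.37 SE, unadjusted p = 0.0484, adjusted p = 0.344 by edgeR). It had 1 to 52 reads per library, the fewest of the 10 genes.

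Olfm4 ranged from 18.8 CPM over a median of 66.8 to 119 CPM in GAL42 libraries, and from 28.1 over 74.7 to 157 CPM in GLU42 libraries. GAL42 libraries were split evenly, 6 below and 6 above the GLU42 median. The ratio was 0.846 with an interval of 0.575 to 1.25 (adjusted p = 0.720 by edgeR). Smoc2, a secreted calcium-binding matrix protein, was the gene with the smallest difference. It ranged from 5.33 CPM over 11.5 to 19.2 CPM in GAL42 libraries, and from 6.32 over 11.3 to 18.1 CPM in GLU42 libraries, a ratio of 0.990 with an interval of 0.742 to 1.32 (adjusted p = 0.982 by edgeR).

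Slc12a2, the sodium, potassium and chloride carrier of crypt cells, ranged from 11.1 CPM over a median of 26.3 to 41.0 CPM in GAL42 libraries, and from 17.4 over 32.4 to 50.001 CPM in GLU42 libraries. Of the GAL42 libraries 10 of 12 lay below the GLU42 median, as they did for Sox9. Its ratio was 0.801 with an interval of 0.611 to 1.05 (adjusted p = 0.443 by edgeR). Sox9, a Wnt-dependent transcription factor of crypt cells that Paneth cells require, ranged from 3.42 CPM over 7.06 to 11.4 CPM in GAL42 libraries, and from 3.83 over 7.89 to 15.5 CPM in GLU42 libraries. The ratio for Sox9 was 0.812 with an interval of 0.618 to 1.07 (adjusted p = 0.479 by edgeR). Ephb3, the ephrin receptor that keeps Paneth cells at the crypt base, ranged from 0.189 CPM over 2.10 to 3.30 CPM in GAL42 libraries, and from 1.06 over 2.34 to 4.24 CPM in GLU42 libraries. That gave a ratio of 0.860 with an interval of 0.582 to 1.27 (adjusted p = 0.755 by edgeR).

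Among the feedback inhibitors of Wnt signalling, Axin2 ranged from 25.3 CPM over a median of 29.4 to 47.6 CPM in GAL42 libraries, and from 28.7 over 38.3 to 57.0 CPM in GLU42 libraries. In 11 of 12 GAL42 libraries it lay below the GLU42 median, though the ranges overlapped. The means were 31.2 ± 6.34 CPM on GAL42 and 38.5 ± 7.35 CPM on GLU42 (SD), a ratio of 0.809 with an interval of 0.698 to 0.937 (log2 difference -0.31 ± 0.10 SE, unadjusted p = 0.00645, adjusted p = 0.202 by edgeR). Rnf43 was the steadiest of the set, from 25.6 CPM over 29.7 to 37.2 CPM in GAL42 libraries and from 24.5 over 31.9 to 37.3 CPM in GLU42 libraries. Its ratio of 0.974 had an interval of 0.873 to 1.09 (adjusted p = 0.857 by edgeR). Znrf3, the paralogue of Rnf43, ranged from 0.943 CPM over 2.68 to 3.74 CPM in GAL42 libraries, and from 1.30 over 3.01 to 4.03 CPM in GLU42 libraries, a ratio of 0.836 with an interval of 0.642 to 1.09 (adjusted p = 0.537 by edgeR).

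High and low values of several genes came from the same mice. GLU42 replicate 8 was among the 3 highest of 23 libraries for 8 of 10 genes, and GAL42 replicates 1 and 2 were each among the 3 lowest for 6 of 10. GLU42 replicate 8 also had the highest Lyz1, 916 CPM, and the highest Myh11, 31.3 CPM, of all libraries, and GAL42 replicate 2 the lowest Lyz1 but 1, 167 CPM. Without GLU42 replicate 8 the log2 difference was -0.11 for Olfm4 and -0.17 for Sox9, against -0.24 and -0.30 with it. Without GAL42 replicate 2 it was -0.26 for Lgr5, -0.15 for Olfm4 and -0.65 for Ascl2. Without GAL42 replicate 12 it was -0.37 for Lgr5, -0.34 for Olfm4, -0.41 for Slc12a2 and -0.40 for Sox9. Ephb3 stood at -0.10 without GAL42 replicate 1, -0.12 without GLU42 replicate 5, -0.13 without GLU42 replicate 8 and -0.14 without GLU42 replicate 10, against -0.22 with all libraries. None of these fits called any of the 10 genes.

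The Paneth and muscle transcripts did not pass the test between the diets. Lyz1 ranged from 167 CPM over a median of 381 to 748 CPM in GAL42 libraries, and from 151 over 565 to 916 CPM in GLU42 libraries (log2 difference -0.28 ± 0.26 SE, 95% interval -0.82 to 0.25, adjusted p = 0.648 by edgeR). Myh11 ranged from 4.68 CPM over 10.8 to 18.8 CPM in GAL42 libraries, and from 6.10 over 13.1 to 31.3 CPM in GLU42 libraries (-0.35 ± 0.24 SE, interval -0.84 to 0.15, adjusted p = 0.522 by edgeR). Without GLU42 replicate 8 the Myh11 difference was -0.15 and that of Lyz1 -0.17. Reads that Lyz1 shares with its close copy Lyz2 could have been lost or split in counting, so its level is uncertain.

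The whole marker lists, in which no gene stood at 0 in all libraries, were read in the same way. Of 17 tested Paneth genes 15 had a negative and 2 a positive difference (median -0.24), with 0 at an unadjusted p under 0.05. The 18 listed genes summed to 2540 to 5279 CPM in GAL42 libraries and to 2483 to 4220 CPM in GLU42 libraries (permutation p = 0.947, two-sided, 100000 resamples). Guca2b, which is not confined to Paneth cells, made up 57.5 ± 9.98% of that sum on GAL42 and 55.1 ± 12.8% on GLU42 (SD). Without Guca2b, Reg3g and Cd24a, a choice made after seeing the sums, the list ranged from 431 to 1954 CPM in GAL42 libraries and from 389 to 2343 CPM in GLU42 libraries. Of 13 smooth muscle genes 12 had a negative difference (median -0.20), and their sum ranged from 338 to 472 CPM in GAL42 libraries and from 372 to 578 CPM in GLU42 libraries (permutation p = 0.169).

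From library to library 8 of the 10 genes followed Lyz1. Over 23 libraries, in log2 CPM, Pearson's r and Spearman's rho both passed for these 8 at an adjusted p of 0.05 over the 20 relations with Lyz1 and Myh11 (permutation tests, 100000 resamples). Of the 13404 other tested genes 5.51% had an r and a rho with Lyz1 at least as high as Lgr5, the weakest of the 8. The relation was closest for Smoc2 (r = 0.927, rho = 0.908), Olfm4 (r = 0.929, rho = 0.888) and Sox9 (r = 0.840, rho = 0.884). For Smoc2, Olfm4 and Sox9 the permutation p of both measures was 1e-05, the smallest these permutations can give, and the adjusted p was 4e-05. Ephb3 (rho = 0.839), Ascl2 (0.796), Slc12a2 (0.772), Znrf3 (0.646) and Lgr5 (0.521) came next, and Lgr5 had an adjusted p of 0.0236 for rho and 0.00913 for r. Without the 2 libraries farthest from the median of Lyz1, GAL42 replicate 2 and GLU42 replicate 7, r lay at 0.905 for Olfm4 and at 0.600 for Lgr5.

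Neither Axin2 nor Rnf43 passed with Lyz1. For Axin2 r was -0.120 and rho -0.199 (adjusted p = 0.607 and 0.464, permutation tests), and for Rnf43 r was -0.370 and rho -0.381 (adjusted p = 0.152 and 0.135). Within GAL42 libraries rho with Lyz1 was 0.951 for Smoc2, 0.902 for Olfm4, 0.895 for Sox9, 0.734 for Lgr5 and -0.455 for Axin2. Within GLU42 libraries it was 0.900 for Smoc2, 0.855 for Olfm4, 0.873 for Sox9, 0.345 for Lgr5 and -0.218 for Axin2. Within a diet both measures passed for 5 of 10 genes on GAL42 and for 6 of 10 on GLU42. The share of all tested genes that follow Lyz1 within a diet was not counted. Lgr5 passed on GAL42 (adjusted p = 0.0352 for rho, permutation test) and did not on GLU42 (adjusted p = 0.595).

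**Figure D2:**
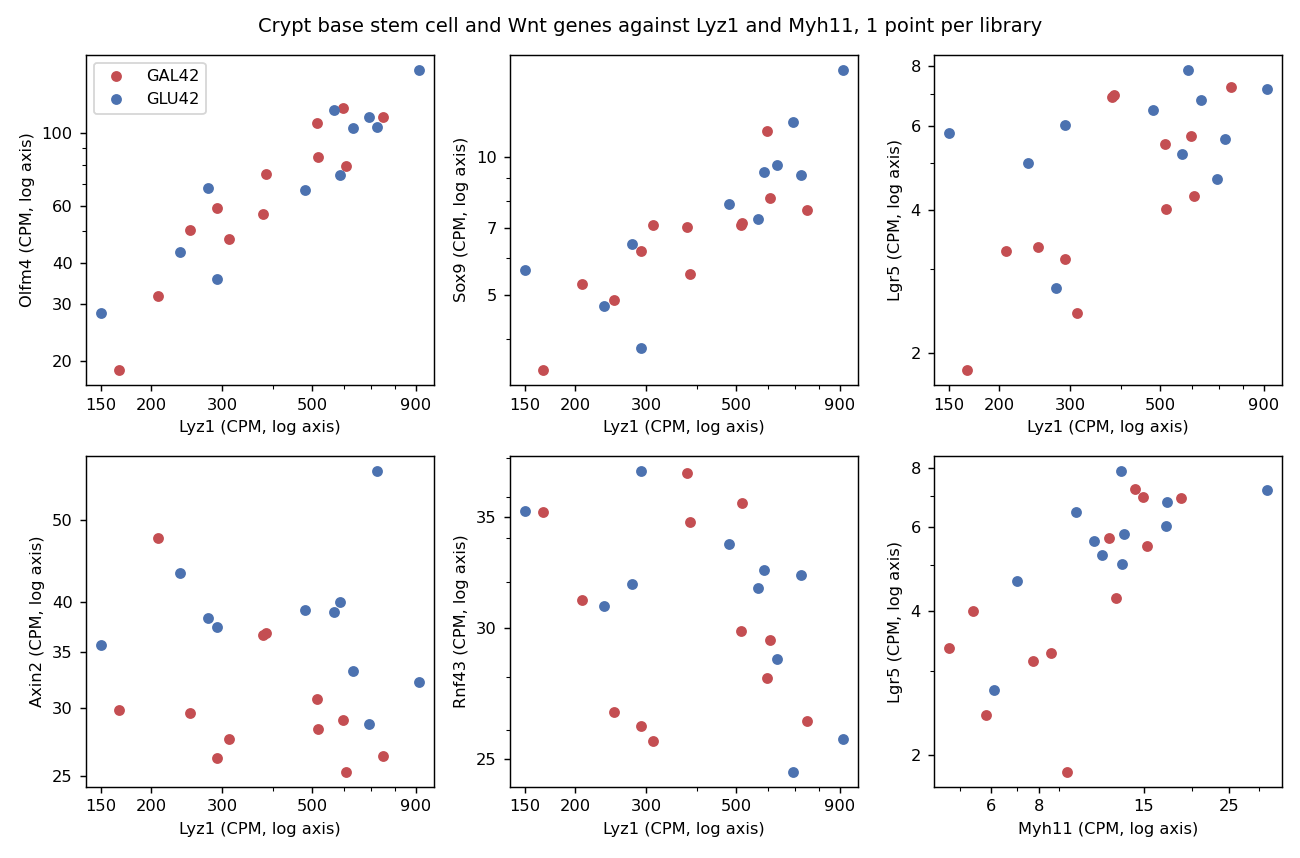
Level of a stem cell or Wnt gene (y axis) against Lyz1 or Myh11 (x axis), both in CPM on log axes, 1 point per library, GAL42 in red and GLU42 in blue. Olfm4 and Sox9 climb with Lyz1 in both diets, Axin2 and Rnf43 do not, and Lgr5 climbs with Myh11.

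With Myh11 1 gene passed by both measures, Lgr5, whose values were reached by 1.06% of tested genes. It had r = 0.722 and rho = 0.778 over 23 libraries (adjusted p = 0.000171 and 6.7e-05, permutation tests), and r was 0.724 without GAL42 replicate 10 and GLU42 replicate 8. Its rho with Myh11 was 0.692 within GAL42 libraries (adjusted p = 0.0517) and 0.645 within GLU42 libraries (adjusted p = 0.0921), so neither diet alone passed by rank, while r passed in both (0.699, adjusted p = 0.0325 on GAL42, and 0.730, adjusted p = 0.0444 on GLU42, permutation tests). On GLU42 r was 0.523 without replicates 2 and 8. Ephb3 passed by rho (0.524, adjusted p = 0.0236) but not by r (0.453, adjusted p = 0.0603), and its r was 0.365 without GAL42 replicate 10 and GLU42 replicate 8. For the other 8 genes rho with Myh11 lay between 0.105 and 0.285. Lyz1 and Myh11 themselves had r = 0.348 and rho = 0.296 (adjusted p = 0.337 and 0.369 over 13 relations added after the data were seen, permutation tests).

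With Lyz1 and Myh11 both held as covariates in the edgeR fit, 8 of 10 differences lay nearer 0 than with diet alone, and those of Axin2 and Smoc2 did not. With Lyz1 held, the log2 difference was -0.00288 for Olfm4 (95% interval -0.24 to 0.23), -0.04 for Ephb3, -0.13 for Sox9, -0.15 for Slc12a2, -0.16 for Znrf3 and -0.40 for Ascl2. For Smoc2 it was positive, 0.15 (interval -0.02 to 0.33). With Myh11 held, Lgr5 stood at -0.18 (interval -0.49 to 0.13), against -0.34 in the fit without it. With both held, the median of the 10 genes was -0.15, against -0.28 without either, and Ascl2 stood at -0.52 (interval -1.05 to 0.01). Axin2 stood at -0.33 with Lyz1 held, -0.30 with Myh11 held and -0.32 with both (interval -0.54 to -0.10, adjusted p = 0.144 by edgeR).

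Rnf43 stood at -0.06 with Lyz1 held and -0.04 with both. With the sums of the narrower Paneth list and of the smooth muscle list held instead, an alternative chosen after seeing the data, the median of the 10 genes was -0.13, Olfm4 stood at -0.05, Lgr5 at -0.20 and Axin2 at -0.30. None of these fits called any of the 10 genes. A single transcript carries its own counting and library error, and what a shift of Lyz1 or Myh11 stands for was not tested.

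**Figure D3:**
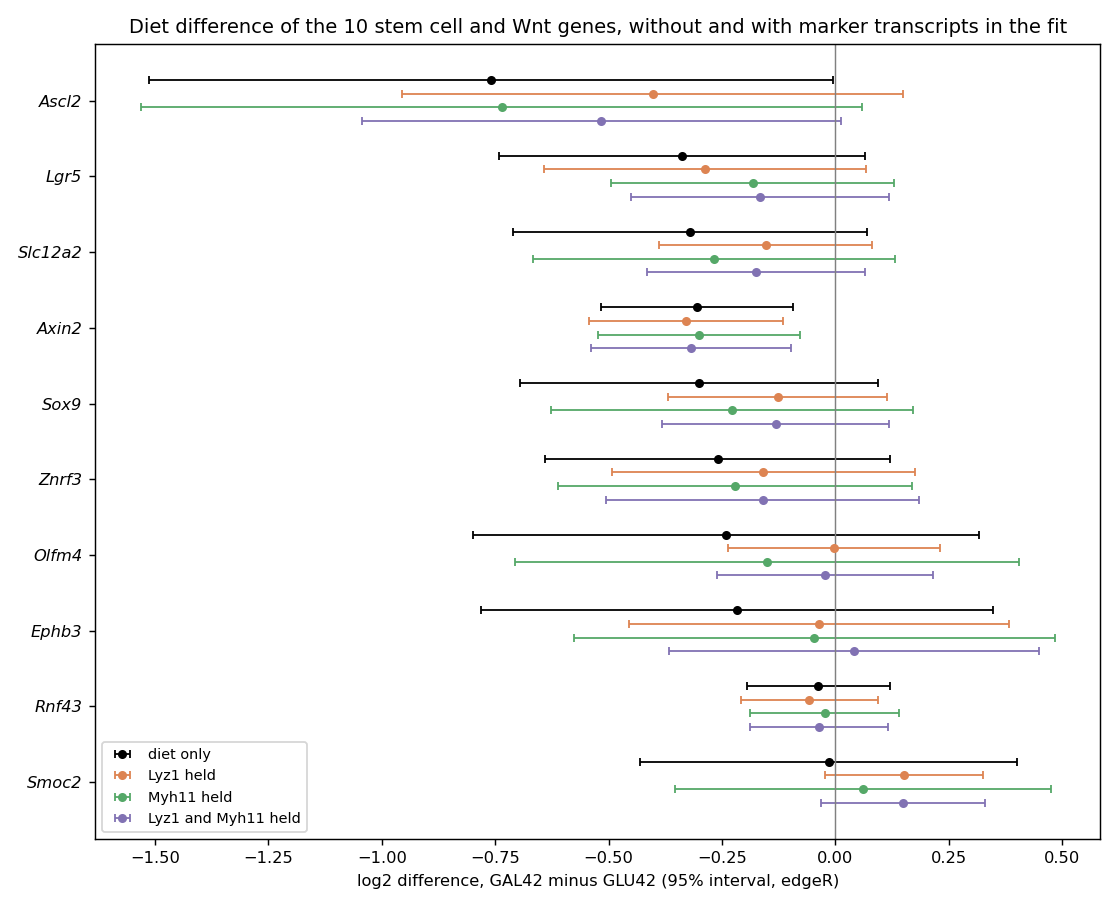
Log2 difference between the diets (x axis, GAL42 minus GLU42, with 95% intervals from edgeR) of each gene, fitted with diet alone and with Lyz1, Myh11 or both held. With Lyz1 held Olfm4 lies at -0.00288, while Axin2 keeps a difference between -0.33 and -0.30 in all 4 fits. In a fit not shown, with the length slope held, Axin2 lies at -0.13.

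Among themselves most of the genes formed a block, and 2 further pairs passed. Of 45 pairs 23 passed by both r and rho at an adjusted p of 0.05 (permutation tests, 23 libraries). Over all pairs of tested genes 3.82% had an r and a rho at least as high as the lowest among those 23. All 21 pairs among Olfm4, Smoc2, Slc12a2, Sox9, Ascl2, Ephb3 and Znrf3 were among them, a grouping made after seeing the correlations, with rho from 0.466 to 0.917. Without the 2 libraries farthest from the median r over all libraries ran from 0.399 to 0.932. Within a diet, with 12 or 11 libraries in place of 23, 8 of these 21 pairs passed on GAL42 and 9 on GLU42. The 21 pairs were grouped by their correlations in these same libraries, and the share of all gene pairs within a diet was not counted. Within diets rho of the 21 pairs ran from 0.0559, for Ascl2 with Znrf3, to 0.902 on GAL42, and from 0.591 to 0.973 on GLU42. Without its 2 farthest libraries, GAL42 replicates 1 and 2, r of Ascl2 with Znrf3 on GAL42 was -0.314. The closest were Olfm4 with Smoc2 (r = 0.948, rho = 0.917) and Olfm4 with Slc12a2 (r = 0.942, rho = 0.913). Within diets rho of Olfm4 with Smoc2 was 0.902 on GAL42 and 0.973 on GLU42. The other 2 pairs were Lgr5 with Ephb3 (r = 0.514, rho = 0.544) and Axin2 with Rnf43 (r = 0.482, rho = 0.491, adjusted p = 0.0316 and 0.0362). Axin2 with Rnf43 did not pass within a diet, at rho = 0.608 on GAL42 (adjusted p = 0.118) and 0.409 on GLU42 (adjusted p = 0.332).

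Lgr5 and Axin2, both direct targets of beta-catenin, had r = 0.248 and rho = 0.254 (adjusted p = 0.311 and 0.293, permutation tests). Rnf43 and Znrf3, the paralogous ligases, had r = -0.149 and rho = -0.132 (adjusted p = 0.579 and 0.585). Rnf43 had negative rho with 7 of the other genes, the lowest being -0.438 with Sox9 and -0.434 with Olfm4 (adjusted p = 0.0664 for each, permutation tests). By r both passed, at -0.510 with Sox9 (adjusted p = 0.0220) and -0.454 with Olfm4 (adjusted p = 0.0457), and without the 2 farthest libraries r was -0.383 with Sox9 and -0.331 with Olfm4.

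**Figure D4:**
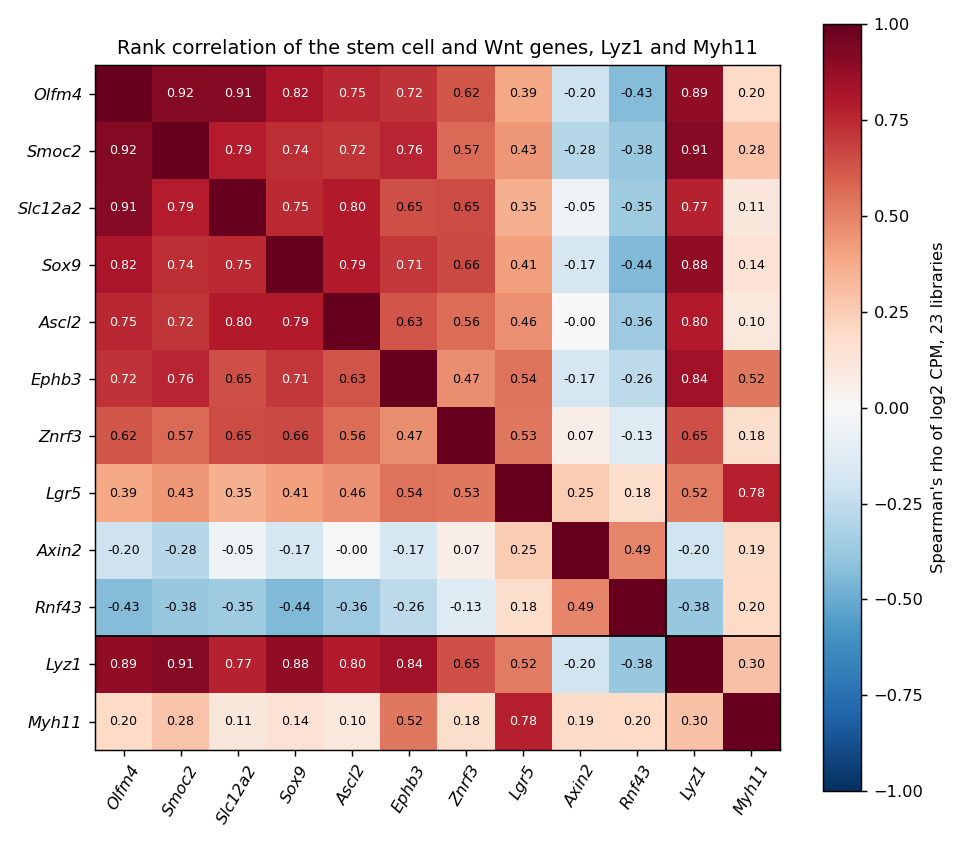
Spearman's rho of log2 CPM over 23 libraries (colour and number) for each pair of the 10 genes and with Lyz1 and Myh11 beyond the black lines. Olfm4 to Znrf3 form a red block with Lyz1, Axin2 and Rnf43 have their highest value, 0.49, with each other, and Lgr5 has its highest value, 0.78, with Myh11.

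The genes most like each one over 23 libraries, by Spearman's rho of log2 CPM less each diet's mean among 13404 others, were read next. For Olfm4 they were Impdh2 (0.960), an enzyme of guanine nucleotide synthesis, Clca3b (0.957) and the defensin Defa30 (0.942). For Smoc2 they were Rrp1b (0.944), the Paneth and goblet cell lectin Itln1 (0.931) and Olfm4 (0.920), and for Slc12a2 Impdh2 (0.928), Olfm4 (0.918) and the kinesin Kif15 (0.893). Sox9 was nearest to Defa26 (0.938), AY761184 (0.914) and Lyz1 (0.901), and Ephb3 to Itln1 (0.834), Lyz1 (0.829) and Mum1 (0.822). Ascl2 was nearest to Rnaseh2a (0.869), the ribosomal protein gene Rpl36a (0.843) and Rbm8a (0.840), and Znrf3 to Txndc5 (0.819), Shcbp1 (0.766) and the chromatin assembly factor subunit Chaf1a (0.758).

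The neighbours of the remaining 3 genes were others. Those of Lgr5 were Sept4 (0.869), Mtss1l (0.846) and Shank3 (0.845), with Myh11 at rank 42 (0.768) and Olfm4 at rank 843 (0.474). For Axin2 they were Aff1 (0.846), Osbpl11 (0.842) and Diaph1 (0.841), and for Rnf43 Phf2 (0.864), Sipa1l3 (0.856) and Synpo (0.851). Rnf43 stood at rank 359 for Axin2 (0.635).

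Axin2, and by r Rnf43, followed a property of the libraries, the length slope. For each library, log2 CPM less each gene's mean over the 23 libraries was regressed on log2 transcript length. The slope is thus relative to the average of these libraries. It was computed from the same values of the tested genes, and the share of all genes that follow it was not counted. That slope was -0.0289 ± 0.0553 on GAL42 and 0.0315 ± 0.0450 on GLU42 (SD), a difference between the diets that was not tested. Axin2 had r = 0.704 and rho = 0.739 with it over 23 libraries (adjusted p = 0.00247 and 0.00117 over 13 relations added after the data were seen, permutation tests). Within GAL42 libraries its rho was 0.804 (adjusted p = 0.0361) and within GLU42 libraries 0.191 (adjusted p = 0.751), where it was -0.483 without replicates 8 and 9. Rnf43 had r = 0.566 (adjusted p = 0.0350) and rho = 0.491 (adjusted p = 0.122), and its rho was 0.426 without GAL42 replicates 5 and 8.

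For the other 8 genes r with the length slope lay between -0.380 and 0.160. With the length slope held in the edgeR fit Axin2 stood at -0.13 (interval -0.34 to 0.08), against -0.31 without it. Rnf43 turned to 0.10, while Ascl2 stood at -1.32 (interval -2.15 to -0.49, unadjusted p = 0.00304, adjusted p = 0.736 by edgeR), Sox9 at -0.50, Olfm4 at -0.52 and Lgr5 at -0.35. The median of the 10 genes was -0.40 in that fit, and 0 of 10 were called.

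Elsewhere in the Wnt pathway 0 genes passed the test in either direction. Of 11 tested receptors 10 had a negative difference (median -0.18). At an unadjusted p under 0.05, where 5.72% of all genes were lower, 4 receptors were lower. The differences of the receptors with the length slope held are not given here. Fzd1, a Frizzled receptor, had 4.02 ± 0.691 CPM on GAL42 and 5.25 ± 0.656 CPM on GLU42 (SD; log2 difference -0.38 ± 0.10 SE, adjusted p = 0.138 by edgeR). Fzd5, another Frizzled receptor, had 103 ± 11.03 CPM on GAL42 and 119 ± 13.4 CPM on GLU42 (-0.22 ± 0.07, adjusted p = 0.162). The co-receptor Lrp6 stood at -0.21 (adjusted p = 0.301) and Lgr4, the R-spondin receptor found throughout the epithelium, at -0.18 (adjusted p = 0.348).

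Of 8 tested ligand and secretion genes 6 had a negative difference (median -0.12), and Wnt6 stood at -0.42 (unadjusted p = 0.0216, adjusted p = 0.260). Of 17 tested transducers and nuclear factors 11 were negative (median -0.06), with the beta-catenin partner Bcl9 at -0.21 (adjusted p = 0.331). Of 11 tested inhibitors 5 were negative and 6 positive (median 0.01), with Nkd1, a feedback inhibitor and Wnt target, at -0.48 (adjusted p = 0.281). Of 13 other Wnt targets 10 were negative (median -0.10), with Nkd1 again and Fgfr2 at -0.24 (adjusted p = 0.240). Some genes stand on 2 of these lists.

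**Figure D5:**
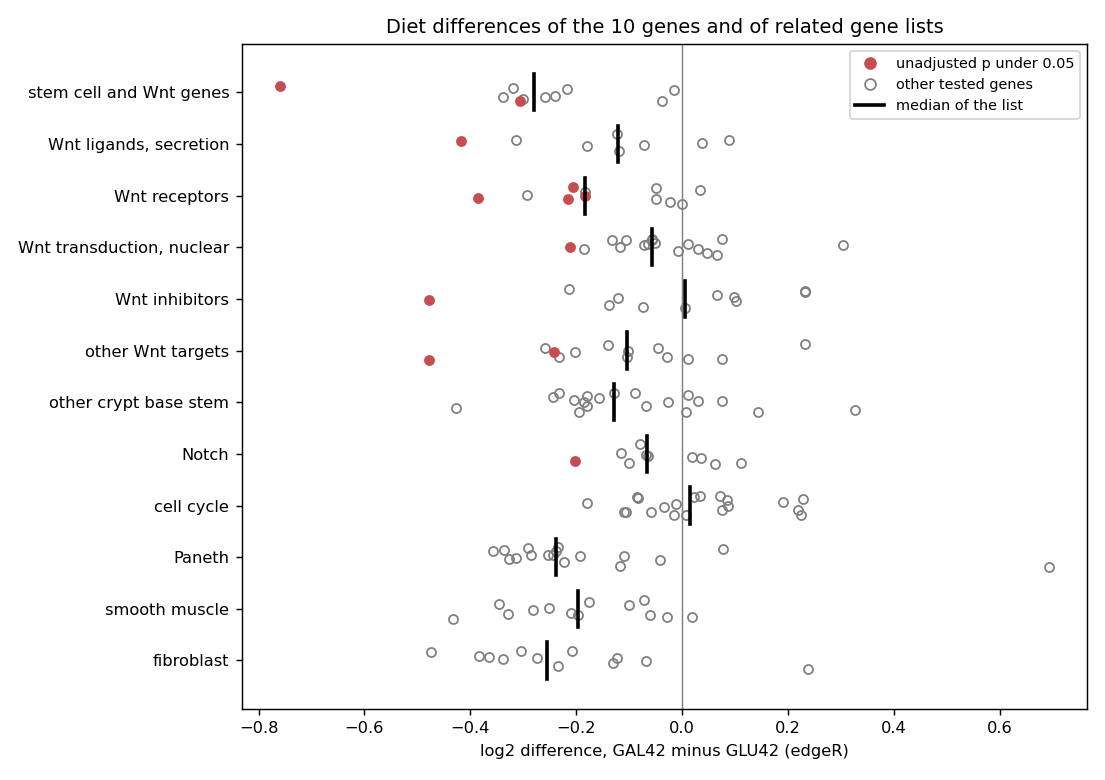
Log2 difference between the diets (x axis, GAL42 minus GLU42, edgeR) of every tested gene on 12 lists, with the median as a bar and red points for an unadjusted p under 0.05. The 10 stem cell and Wnt genes have a median of -0.28, Paneth genes -0.24, fibroblast genes -0.25 and cell cycle genes 0.02.

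Of 19 other tested crypt base stem cell genes 13 had a negative difference (median -0.13), with 0 at an unadjusted p under 0.05, and the most abundant were Pdgfa and Clca3b. Of 5 genes of the slow-cycling or regenerating crypt cells 3 were positive (median 0.01), and Hopx had 47.7 ± 7.57 CPM on GAL42 and 39.4 ± 10.2 CPM on GLU42 (log2 difference 0.28 ± 0.12 SE, adjusted p = 0.277 by edgeR). The Notch list, whose pathway keeps crypt base cells undifferentiated, had 6 of 10 negative (median -0.07), with the coactivator Maml1 at -0.20 (adjusted p = 0.228). Cell cycle genes were split, 9 negative and 11 positive of 20 (median 0.02), with 0 at an unadjusted p under 0.05. Their sum was 329 ± 65.6 CPM on GAL42 and 327 ± 78.3 CPM on GLU42 (SD).

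Among other cells of the scraping, fibroblast genes had 11 of 12 negative differences (median -0.25, 0 at an unadjusted p under 0.05). Of 3 tested genes of enteric neurons and glia 3 were negative (median -0.30), with the receptor Ret at -0.40 (adjusted p = 0.205). Goblet cell genes had 6 of 8 negative (median -0.08, Fcgbp at -0.23, adjusted p = 0.273) and tuft cell genes 6 of 7 (median -0.09, Dclk1 at -0.25, adjusted p = 0.329). Villus tip genes had 6 of 6 negative (median -0.25, Nt5e at -0.63, adjusted p = 0.212, and Enpp3 at -0.31, adjusted p = 0.313). Enterocyte genes were split, 4 negative and 7 positive of 11 (median 0.02). At an unadjusted p under 0.05, where 5.72% of all genes were lower and 8.63% higher, 3 enterocyte genes were lower and 2 higher. Among them the glucose and galactose carrier Slc5a1 stood at 0.25 (adjusted p = 0.203) and Fabp1 at 0.21 (adjusted p = 0.291), while the peptidase Anpep stood at -0.33 (adjusted p = 0.237) and the peptide carrier Slc15a1 at -0.33 (adjusted p = 0.258 by edgeR). Enteroendocrine genes were 5 negative and 5 positive of 10 (median 0.00), with Sct, secretin, at 0.23 (adjusted p = 0.287).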

How the data were processed

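The authors deposited raw read counts per Ensembl gene, 1 table per mouse. STAR, HTSeq and GRCm39 are named as tools and build, per the submitters' processing notes, with no versions. The annotation release and the strand setting are not stated there. Exons of Axin2 overlap Gm11670 on the opposite strand and those of Olfm4 overlap Gm6999 in GENCODE M21, so reads there may be lost or shared. The 5 rows naming no gene held 13.5% of reads and were left out.

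The comparison of diets used edgeR 4.0.16 under R 4.3.3 (filterByExpr, TMM, quasi-likelihood F test, all 23 libraries, diet as the only term), with p-values adjusted by Benjamini-Hochberg over 13405 genes. CPM use TMM-scaled library sizes, and correlations use log2 CPM with a prior count of 2. Intervals are at 95%, and p-values measure the spread between mice. The longest GENCODE M21 transcript gave each gene's length. Of 121 library pairs within a diet none were copies (chi-square per degree of freedom 12.9 to 51.3). Alternatives were DESeq2 1.42.0, limma 3.58.1 voom, other scalings and filters, covariates, and each library left out.

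The genes and lists were chosen with earlier results of these data known. Named are the 10 genes, Lyz1, Myh11, up to 4 genes of each list with an unadjusted p under 0.05 (where a list had none, its 2 most abundant could be named), and the 3 genes most like each of the 10 (predicted genes left out).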

Additional observations from a re-analysis of the deposited data

How the results depend on the processing

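Across 15 other settings for the 10 genes, 9 for Lyz1 and Myh11, and 23 libraries left out in turn, 427 of 444 recomputed log2 differences kept their sign. Of the 444, 0 passed, though Ascl2 with DESeq2 had no adjusted p to judge. The 17 that turned were 15 of Smoc2 and 1 each of Rnf43 and Ephb3. Smoc2 turned to 0.152 with Lyz1 held, 0.0608 with Myh11 held, 0.148 with both, 0.0203 with the Paneth and smooth muscle list sums, 0.0914 with the narrower Paneth sum and 0.0216 with quality weights, and ranged from -0.101 to 0.0597 with a library left out. Rnf43 turned to 0.0960 with the length slope held, and Ephb3 to 0.0412 with Lyz1 and Myh11 held. The cause was not tested. The list sums were added after the data were seen.

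Genes called between the diets numbered 0 in the edgeR fit with diet alone, with 1924 at an unadjusted p under 0.05. They numbered 86 with DESeq2, 167 with quality weights, 1 with Lyz1 held, 5 with Lyz1 and Myh11 held, 18 with the list sums held and 120 with the narrower sum held, and 0 to 219 with a library left out (219 without GAL42 replicate 7). None of the 10 genes was among them. DESeq2 gave no adjusted p for Ascl2. With a library left out Lyz1 ranged from -0.39 to -0.17 and Myh11 from -0.45 to -0.15. Relations called with Lyz1 and Myh11 numbered 9, and 10 without TMM scaling, and pairs called numbered 23, and 29 without it. Depth limits Ascl2 and Ephb3, whose lowest libraries held 1 and 3 reads. No paired analysis was possible because the labels give no number shared by mice of both diets.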

Other observations

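Markers of pancreatic acinar cells, mostly below the count filter, summed to 628 CPM in GAL42 replicate 2, against a lowest value of 23.3 CPM in GAL42 libraries and a range of 22.4 to 63.9 CPM in GLU42 libraries. Of the 2 tested, the elastase Cela1 had a log2 difference of 1.09 (edgeR, unadjusted p = 0.0191 and adjusted p = 0.250). B cell transcripts varied widely, with Cd79a at 7.25 ± 7.01 CPM on GAL42 and 3.12 ± 2.46 CPM on GLU42 (SD; log2 difference 1.21 ± 0.51 SE, adjusted p = 0.280 by edgeR). Of 10 tested immune genes 8 had a positive difference (median 0.20), and Cd8a, of cytotoxic T cells, stood at 0.39 (adjusted p = 0.344). The adipocyte list had 2 tested genes with a median of -0.16.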
